A study of Homo sapiens with 24 samples.

Results

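The genes described here are 50 cell cycle genes, 18 that act in S phase and 32 that act in mitosis, taken by Ensembl identifier from a table of 62757 genes counted in 24 RNA-seq libraries. The cells came from HES3, a human embryonic stem cell line that carries GFP at NKX2-5 and mCherry at NR2F2, and were differentiated towards heart muscle as embryoid bodies for at most 14 days. The libraries are labelled AM or VM. The labels do not spell these letters out; an atrial culture given retinoic acid at day 4 is read here as AM, and a ventricular culture without it as VM. In each, a gene had been targeted by CRISPR-Cas9: TRAC, a T-cell receptor gene used as the control target, LHX2, ZNF503 or ZNF711. Each of the 8 groups held 3 libraries, and all share the reporter line and a nuclease targeting step, the TRAC controls included. Whether a targeted line is 1 clone is not stated in the labels, nor whether the 3 libraries came from separate differentiations, so p-values measure the spread between these libraries, which may be technical. The labels name polyA RNA as the molecule and a ribosomal RNA removal kit for the libraries, and which of them sets the counts was not tested.

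S-phase genes and mitotic genes are switched on one after the other in a dividing cell. At the end of G1 the E2F factors, released from the RB family, turn on the genes for origin licensing, the replicative helicase and nucleotide supply. In G2 the MuvB complex, with MYBL2 and FOXM1, turns on the genes for spindle assembly, chromosome segregation and cytokinesis, many of which carry a short promoter element called the cell cycle homology region, or CHR. In resting cells the same MuvB core is part of the DREAM repressor. Young cardiomyocytes still divide and lose that capacity as they mature, and other cells of the same culture divide as well.

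The promoter letters that distinguish the classes are shown first. RefSeq windows of 300 bases, 250 before and 50 after the start (build GRCh38.p14), were found for 40 of the 50 genes, 51 windows in all. The core CHR, TTTGAA on either strand, was in 19 of 28 windows of mitotic genes, in 1 of 23 windows of S-phase genes and in 15.16% of all 35116 windows. An E2F site, spelled TTCCCGC or with the letters TTGGCGC, or else TTCGCGC or the form TTGCCGC, on either strand, was in 6 of 28 mitotic windows, in 15 of 23 S-phase windows and in 12.97% of all windows. A CCAAT box on either strand did not separate the classes, with 21 of 28 and 17 of 23 windows against 34.61% of all. A match describes letters and does not show that a factor binds, and windows of 1 gene can overlap and hold the same match. The 100 bases before the start follow for the 4 mitotic and 4 S-phase genes of lowest p in the mean comparison of AM with VM, among called genes with 1 window and the element in this stretch, and for MKI67. Capitals mark the core CHR in mitotic genes and the E2F sites in S-phase genes.
ANLN, chr7:36389762-36389861, plus strand: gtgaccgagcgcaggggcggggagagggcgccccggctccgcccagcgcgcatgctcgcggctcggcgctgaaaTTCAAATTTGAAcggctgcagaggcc
CDC20, chr1:43358881-43358980, plus strand: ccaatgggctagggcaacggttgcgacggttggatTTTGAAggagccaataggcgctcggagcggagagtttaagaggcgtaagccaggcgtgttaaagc
KIF11, chr10:92593030-92593129, plus strand: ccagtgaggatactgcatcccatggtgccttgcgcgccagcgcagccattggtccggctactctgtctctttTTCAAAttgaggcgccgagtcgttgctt
CCNB2, chr15:59105046-59105145, plus strand: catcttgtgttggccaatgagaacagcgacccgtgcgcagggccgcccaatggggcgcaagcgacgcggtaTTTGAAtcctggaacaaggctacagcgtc
MKI67, chr10:128126424-128126523, minus strand: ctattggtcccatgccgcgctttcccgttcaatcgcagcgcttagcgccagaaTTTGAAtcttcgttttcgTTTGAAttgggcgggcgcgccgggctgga
TYMS, chr18:657553-657652, plus strand: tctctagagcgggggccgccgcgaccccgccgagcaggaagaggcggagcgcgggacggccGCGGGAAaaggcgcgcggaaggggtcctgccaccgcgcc
MCM6, chr2:135876444-135876543, minus strand: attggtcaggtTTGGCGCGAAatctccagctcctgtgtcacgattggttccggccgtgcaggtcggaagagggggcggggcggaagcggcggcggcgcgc
CDT1, chr16:88803689-88803788, plus strand: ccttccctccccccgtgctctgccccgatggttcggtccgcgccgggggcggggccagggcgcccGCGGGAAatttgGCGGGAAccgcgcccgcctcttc
E2F1, chr20:33686386-33686485, minus strand: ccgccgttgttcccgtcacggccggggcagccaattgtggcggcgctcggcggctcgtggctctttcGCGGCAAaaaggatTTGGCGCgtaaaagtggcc

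Between the element nearest the start and the start lay 14 bases in ANLN, 22 in KIF11, 23 in CCNB2 and MKI67 and 59 in CDC20. In the S-phase genes it was 12 bases in E2F1, 16 in CDT1, 32 in TYMS and 79 in MCM6. ANLN and MKI67 hold the core CHR at 2 places, and CDT1, E2F1 and MCM6 hold 2 E2F matches, which overlap in MCM6.

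**Figure D1:**
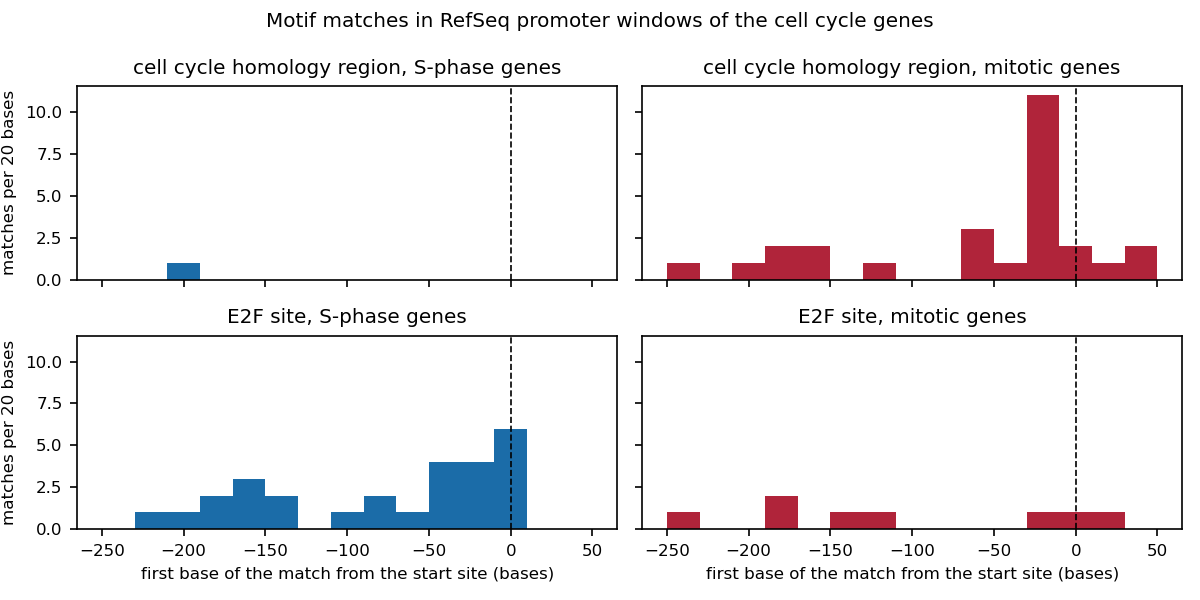
Number of matches per 20 bases (y axis) of the core CHR and of the E2F sites by distance from the RefSeq start (x axis, bases), over 23 windows of S-phase genes and 28 windows of mitotic genes; overlapping windows of 1 gene can count a match more than 1 time. Core CHR matches lie in 19 of 28 mitotic and 1 of 23 S-phase windows, and E2F matches in 6 of 28 and 15 of 23.

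Total counts ran from 2899786 to 7438010 per library. Levels are given as CPM, read counts scaled to a common library total after TMM, a correction for library composition. LHX2 had at most 34 counts in any library, so it checks no label. ZNF711 was at 31.2 to 55.8 CPM in AM ZNF711 against 47.4 to 60.2 in AM TRAC, which overlap, and at 25.9 to 33.9 in VM ZNF711 against 34.6 to 48.01 in VM TRAC, which do not. ZNF503 RNA was higher in the libraries labelled ZNF503 than in TRAC. It was at 255 to 367 CPM against 103 to 123 in AM, and at 19.1 to 45.3 against 8.82 to 16.2 in VM. These are called the libraries labelled ZNF503 below. The RNA level alone does not show whether the function of the gene was lost. No direction drawn from these libraries is therefore tied to such a loss. NR2F2, which the retinoic acid culture is known to raise, was at 320.2 to 514 CPM in AM and 18.9 to 85.9 in VM. Other atrial genes did not all follow. MYL7 averaged 584 CPM in AM TRAC and 1176 in VM TRAC, and NPPA 5.48 and 14.1. NR2F1, KCNA5, KCNJ3, TBX5 and SLN had higher means in AM TRAC than in VM TRAC.

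Some VM libraries stood apart in cell type markers. The summed level of 14 cardiomyocyte genes was 16236, 21890.0 and 19232 CPM in replicate 3 of VM TRAC, VM LHX2 and the VM libraries labelled ZNF503, against 38514 to 43433 CPM in their replicates 1 and 2. The summed level of 9 endoderm genes, mostly AFP, was 20799, 7464 and 13778 against 1174 to 2680.5 CPM. All 3 VM ZNF711 libraries had a low cardiomyocyte sum, 12246 to 18291 CPM, and a high endoderm sum, 7794 to 22637 CPM. In AM the sums were 15608 to 31183 and 169 to 1640.4 CPM. There too replicate 3 had the highest endoderm sum of each group. It was 846 CPM in TRAC, 802 in LHX2, 653 in ZNF503 and 1640.4 in ZNF711. Replicates 1 and 2 had 252 to 307, 277 to 306, 169 to 202 and 794 to 874 CPM. The cardiomyocyte sum of AM replicate 3 was the highest of its group in TRAC, LHX2 and ZNF503, and the lowest in ZNF711. The endoderm genes did not all move together. Group means of FOXA1 were 20.5 to 36.9 CPM in AM and 3.01 to 9.56 in VM, and of SOX17 3.97 to 6.30 and 1.26 to 2.81. AFP, ALB, APOA1 and APOA4 had higher means in VM for every target, and FOXA2, TTR and HNF4A for every target but LHX2. The cardiomyocyte genes that define the labelled cell type were counted in every library. The ventricular gene MYL2 was at 0 in 11 of 12 AM libraries and in 0 of 12 VM libraries, but reached at most 9.21 CPM. In these bulk libraries fewer dividing cells and less RNA per dividing cell cannot be told apart.

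Of the 50 genes, 48 had enough counts to be tested, among 17724 genes. NUSAP1, a spindle microtubule protein, reached at most 0.8005 CPM and had 9 counts in all libraries together, and PRC1, which bundles microtubules at the spindle midzone, lay between 0 and 2.86 CPM. Of their exon bases 62.2% and 57.6% are shared with another gene entry on the same strand, and those entries had 0 counts and 0 to 26 counts per library. The part of this overlap in the low counts was not tested. TYMS shares 46.6%, CCNE2 37.1%, MCM2 23.6%, FOXM1 15.9% and PLK1 12.5% of exon bases with genes on the opposite strand, and RRM2 20.2% with one on its own. Whether the counting used strand is not given in the sources used here, so their values are uncertain to that extent.

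Per kilobase of exon, MCM3 had the highest mean level of the S-phase genes, 27.6 CPM per kb in AM and 26.03 in VM, followed by PCNA at 21.5 and 21.4 and MCM7 at 17.4 and 19.2. MCM3 and MCM7 belong to the MCM2-7 ring that unwinds DNA at the fork, and PCNA is the clamp that holds polymerases on DNA. Of the mitotic genes TPX2, a spindle assembly factor, was highest per length at 15.1 and 21.4, followed by TOP2A, which untangles sister chromatids, at 10.5 and 15.2. CCNE2 (0.373 and 0.488) and CDC45 (1.13 and 1.07) were the lowest S-phase genes, and TTK (1.38 and 2.01) and CENPA (1.502 and 1.89) the lowest tested mitotic genes.

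As 1 level per library, the geometric mean of CPM + 0.5 over the tested genes of a class was taken. The mitotic level was 17.2 ± 2.32 (SD, n = 12) in AM and 24.8 ± 6.58 (SD, n = 12) in VM. The S-phase level was 20.1 ± 1.92 and 23.8 ± 4.32. Both classes overlapped between AM and VM. The mitotic level was 17.5, 17.7 and 23.5 in VM TRAC, 21.04, 18.5 and 30.2 in VM LHX2 and 21.4, 19.98 and 27.3 in the VM libraries labelled ZNF503. In VM ZNF711 it was 33.5, 36.5 and 30.7. Replicate 3, the library with the low cardiomyocyte and high endoderm sums, was thus the highest of its group in the first 3 groups and the lowest in VM ZNF711. By gene it was the highest of 3 for 24, 25 and 18 of 30 mitotic genes in those groups and for 3 in VM ZNF711. In AM it was highest for 21 of 30 in TRAC, 20 in LHX2, 7 in ZNF503 and 24 in ZNF711. Of 18 S-phase genes it was highest for 9, 15, 9 and 1 in VM, with the targets in the same order. In AM it was highest for 9, 10, 3 and 10 of them. The share of all genes highest in replicate 3 was not counted. The part of other cell types in these levels was not tested.

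**Figure D2:**
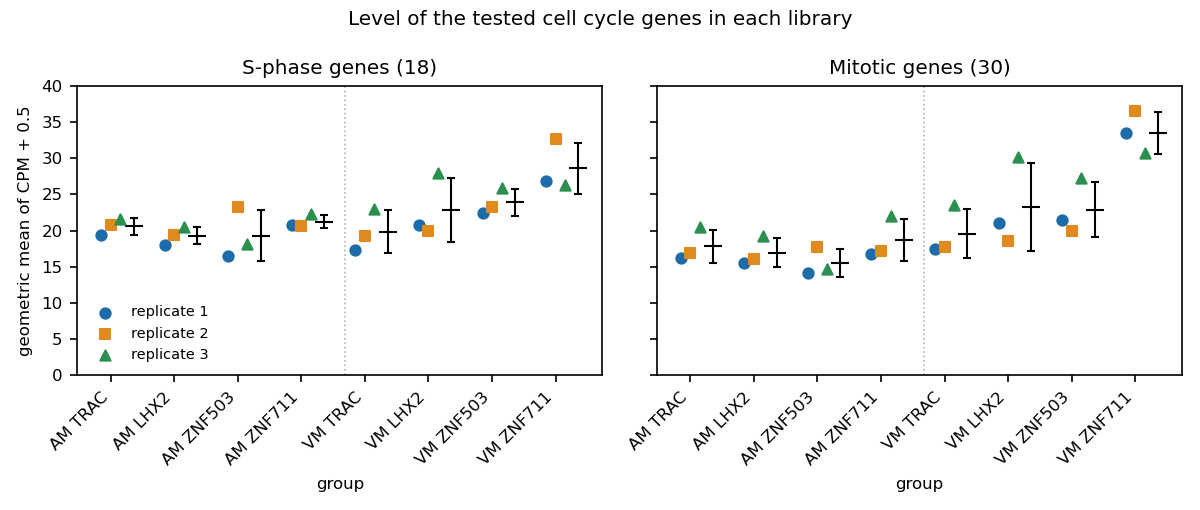
Geometric mean of CPM + 0.5 (y axis) over the 18 S-phase and the 30 mitotic genes tested, by group (x axis), with 1 point per library and the mean ± SD (n = 3). The VM ZNF711 libraries hold the 3 highest mitotic levels, 30.7 to 36.5, and the AM libraries lie between 14.1 and 21.97.

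Mitotic genes were lower in AM than in VM when the difference was averaged over the 4 targets. By edgeR's quasi-likelihood test, with an adjusted p under 0.05 as the threshold, 24 of 30 fell and 0 rose, and the median log2 fold change was −0.49, against −0.01 over all genes. Among S-phase genes, 6 of 18 fell and 0 rose, with a median of −0.17. Of all genes tested, 17.6% were called lower in AM and 16.8% higher. For no gene of either class did all 12 AM libraries lie below all 12 VM libraries. The share of all genes that did is not given here, so this count cannot be set against it.

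The count depended in part on the ZNF711 libraries. Averaged over TRAC, LHX2 and ZNF503, a setting chosen after seeing the data, 12 mitotic and 4 S-phase genes were lower, against 13.9% of all genes, with medians of −0.33 and −0.11. CDT1, E2F1, CENPF and TOP2A were among the genes that then lost their call. With the replicate number as a block in that setting, 17 mitotic and 4 S-phase genes were lower, CENPF and TOP2A among them, against 17.8% of all genes, and MCM4 was higher, against 18.1%. Over all 4 targets, leaving out replicate 1 of every group left 15 mitotic and 5 S-phase genes lower, against 15.4% of all genes, and 1 S-phase gene higher. Leaving out replicate 2 gave 19 and 6 lower, against 11.1%. Without the replicate 3 libraries 20 mitotic and 4 S-phase genes were lower, against 12% of all genes. With all 4 targets and the block, 26 mitotic and 6 S-phase genes were lower, against 20.9%. The block added TTK (adjusted p 0.0823 without it and 0.0486 with it) and KIF23 (0.0992 and 0.0446), and called MCM4 higher in AM (0.0508 and 0.0135).

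Among S-phase genes, TYMS and RRM1 of nucleotide supply and the entry cyclin CCNE1 fell. TYMS, thymidylate synthase, was at 14.8 to 30.7 CPM (median 21.9) in AM and 29.1 to 55.1 CPM (median 41.4) in VM, a log2 fold change (AM over VM, with its standard error, SE) of −0.82 (SE 0.10, adjusted p by edgeR 8.39e-07). CCNE1, the E-type cyclin that drives entry into S phase, was at 3.59 to 10.03 CPM (median 7.83) in AM and 9.901 to 27.4 CPM (median 14.8) in VM, a log2 fold change of −1.21 (SE 0.20, adjusted p by edgeR 2.71e-05). For both the highest AM libraries just passed the lowest VM libraries. RRM1, the large subunit of ribonucleotide reductase, was at 30.2 to 45.9 CPM (median 41.3) in AM and 41.2 to 71.04 CPM (median 50.5) in VM, a log2 fold change of −0.40 (SE 0.09, adjusted p by edgeR 0.000831). RRM2, its small subunit, spanned 10.05 to 28.9 CPM and 9.44 to 39.9 CPM and was not called, with −0.22 (SE 0.13, adjusted p by edgeR 0.225).

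Of the licensing and helicase genes, MCM6 was at 35.7 to 56.7 CPM (median 44.9) in AM and 42.7 to 82.8 CPM (median 56.99) in VM, a log2 fold change of −0.34 (SE 0.08, adjusted p by edgeR 0.00116). CDT1, which loads the MCM ring, was at 6.75 to 18.1 CPM (median 12.6) in AM and 8.41 to 33.1 CPM (median 15.9) in VM, with −0.59 (SE 0.19, adjusted p by edgeR 0.0156), and its call was lost without replicate 3. E2F1, the activator of this class, spanned 9.55 to 19.04 CPM and 14.4 to 26.3 CPM and had −0.32 (SE 0.12, adjusted p by edgeR 0.0388). That call is fragile, since it was lost on leaving out any 1 of 16 of the 24 libraries, at log2 fold changes of −0.33 to −0.27. The ring subunits MCM2, MCM3, MCM4, MCM5 and MCM7 were not called, with log2 fold changes of 0.03, 0.09, 0.22, −0.10 and −0.12. Neither were CDC6, CDC45, GINS2, CCNE2 and UHRF1. PCNA was at 26.2 to 40.5 CPM (median 31.4) in AM and 25.4 to 43.6 CPM (median 29.9) in VM, so that the protocols covered the same range, with 0.02 (SE 0.09, adjusted p by edgeR 0.916).

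Mitotic genes are given by role. In cytokinesis ANLN, the anillin scaffold of the contractile ring, was at 20.9 to 35.9 CPM (median 28.4) in AM and 32.4 to 59.8 CPM (median 42.6) in VM, a log2 fold change of −0.69 (SE 0.09, adjusted p by edgeR 2.32e-06). ECT2, which activates RHOA at the cell equator, was at 12.8 to 25.5 CPM (median 16.3) and 20.5 to 38.03 CPM (median 29.4), with −0.66 (SE 0.12, adjusted p by edgeR 7.86e-05). KIF20A, a kinesin of the spindle midzone, was at 8.36 to 21.7 CPM (median 14.4) and 14.4 to 38.3 CPM (median 19.5), with −0.67 (SE 0.14, adjusted p by edgeR 0.000508). The AM and VM ranges of all 3 overlapped. At the spindle AURKA, a kinase of centrosome maturation, was at 10.4 to 22.1 CPM (median 14.7) and 18.4 to 30.9 CPM (median 24.7), with −0.78 (SE 0.12, adjusted p by edgeR 1.91e-05). TPX2, which activates AURKA on microtubules, was at 47.2 to 78.6 CPM (median 53.1) and 45.8 to 122 CPM (median 74.9), with −0.47 (SE 0.10, adjusted p by edgeR 0.0005603).

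At the kinetochore BUB1, a kinase of the spindle checkpoint, was at 15.4 to 31.9 CPM (median 20.4) in AM and 26.4 to 45.01 CPM (median 34.9) in VM, a log2 fold change of −0.71 (SE 0.11, adjusted p by edgeR 1.02e-05). CENPF, a large protein of the outer kinetochore, was at 53.9 to 90.1 CPM (median 65.5) and 56.9 to 143 CPM (median 93.3), with −0.46 (SE 0.09, adjusted p by edgeR 0.0003595). TOP2A was at 51.4 to 78.5 CPM (median 68.6) and 60.6 to 175 CPM (median 88.3), with −0.49 (SE 0.10, adjusted p by edgeR 0.0003898). The highest VM values of these last genes came from VM ZNF711. Of the G2 regulators FOXM1 had −0.53 (SE 0.12, adjusted p by edgeR 0.00158) and MYBL2 −0.40 (SE 0.12, adjusted p by edgeR 0.0135). CCNA2, CCNB1 and CCNB2, the mitotic cyclins, CDK1, their kinase, and CDC20 and UBE2C, which act with the anaphase-promoting complex, were called lower too. The mitotic genes that were not called were MKI67, TTK, KIF23, AURKB, CDCA8 and CENPA. MKI67, which encodes the proliferation marker Ki-67, was at 82.2 to 157 CPM (median 116) in AM and 79.9 to 217 CPM (median 129.5) in VM, with −0.14 (SE 0.10, adjusted p by edgeR 0.316).

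Genes of the same pathways outside the 50 were taken from lists, and their counts stand beside 17.6% of all genes lower and 16.8% higher. Of 32 other mitotic genes 16 were lower in AM and 0 higher (median −0.41), and of 30 other replication genes 6 were lower and 0 higher (median −0.22), a share near that of all genes. The D-type cyclins of G1 were lower: CCND1 (−0.77, edgeR adjusted p 5.60e-06), CCND2 (−0.48, edgeR adjusted p 0.001301) and CCND3 (−0.67, edgeR adjusted p 0.00185), while their kinase CDK4 was higher (0.23, edgeR adjusted p 0.0458). Inhibitors of cyclin-dependent kinases, which hold the cycle back, were lower as well in 4 of 6 tested. They were CDKN1A (−0.87, edgeR adjusted p 4.17e-06), CDKN1C (−0.97, edgeR adjusted p 0.00318), CDKN2B (−1.04, edgeR adjusted p 0.0235) and CDKN2D (−0.70, edgeR adjusted p 0.0359). A list of 11 genes held pocket proteins, MuvB subunits and the factors E2F4, E2F5 and TFDP1. Of these 11 genes 0 were called by edgeR, 0 at an unadjusted p under 0.05, with a median of 0.06.

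**Figure D3:**
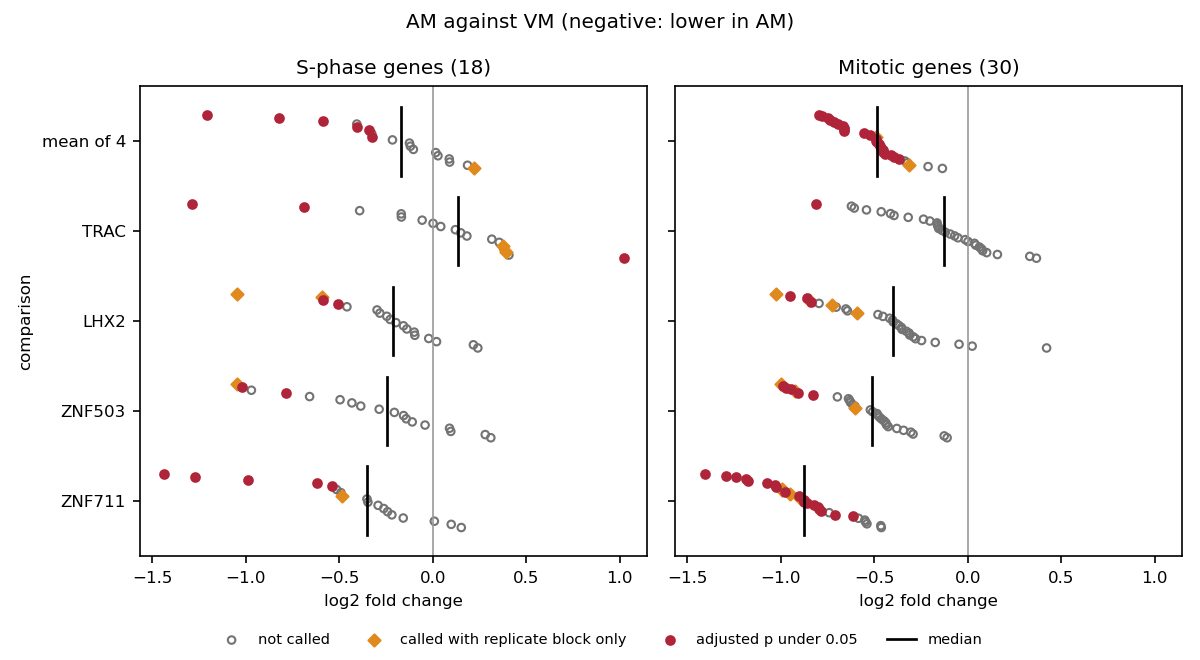
Log2 fold change of each tested gene in AM against VM, for the mean of 4 targets and for each target, with S-phase and mitotic genes apart; the markers show which genes passed an adjusted p of 0.05 and the lines are medians. The mitotic median is −0.13 in TRAC and −0.88 in ZNF711.

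Within the TRAC controls few genes of either class differed between AM and VM. Of 30 mitotic genes 1 was lower (median −0.13), and of 18 S-phase genes 2 were lower and 1 was higher (median 0.14), against 5.12% of all genes lower and 6.18% higher. AURKA was at 10.8, 11.2 and 16.4 CPM in AM and 20.3, 18.4 and 28.6 CPM in VM, a log2 fold change of −0.81 (SE 0.25, adjusted p by edgeR 0.0323). TYMS was at 19.7, 20.9 and 23.5 and 30.8, 31.8 and 40.8 CPM, with −0.69 (SE 0.21, adjusted p by edgeR 0.0316). CCNE1 was at 8.86, 3.59 and 8.02 and 13.3, 9.901 and 26.2 CPM, with −1.29 (SE 0.39, adjusted p by edgeR 0.0318). UHRF1, which carries DNA methylation over to the new strand, went the other way, at 15.6, 24.5 and 21.7 CPM in AM and 8.82, 10.9 and 10.6 CPM in VM, with 1.02 (SE 0.32, adjusted p by edgeR 0.0393). AM and VM did not overlap for any of these 4 genes. They were named for their calls, so this adds no separate support. The share of all genes without overlap is not given here for TRAC, nor for LHX2 and ZNF503 below.

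With the block 1 mitotic and 2 S-phase genes were lower, against 9.2% of all genes, and 3 S-phase genes were higher, against 10.2%. The added genes were MCM3, with 0.38 (SE 0.15, adjusted p by edgeR 0.109, and 0.0233 with the block), and MCM4, with 0.39 (SE 0.17, adjusted p by edgeR 0.161, and 0.0467 with the block). MKI67 had 0.37 (SE 0.20, adjusted p by edgeR 0.267) and PCNA 0.15 (SE 0.18, adjusted p by edgeR 0.685). The 4 calls of the TRAC comparison rested on single libraries: the count was 2 without AM TRAC replicate 1, 0 without AM TRAC replicate 2 and 0 without VM TRAC replicate 3. Without replicate 3 of every group, 0 genes were lower, against 3.64% of all genes. The count was 1 without replicate 1 of every group and 0 without replicate 2, against 2.41% and 1.37%.

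In LHX2, 3 mitotic and 2 S-phase genes were lower in AM (medians −0.40 and −0.21), against 3.88% of all genes. BUB1 was at 15.4, 20.4 and 21.5 CPM in AM and 29.3, 32.9 and 40.8 CPM in VM, a log2 fold change of −0.84 (SE 0.22, adjusted p by edgeR 0.0151). RRM1 was at 38.2, 30.2 and 39.5 and 48.3, 42.9 and 71.04 CPM, with −0.59 (SE 0.18, adjusted p by edgeR 0.0405). Neither gene overlapped between AM and VM. AURKA (−0.86, edgeR adjusted p 0.0306), CCNA2 (−0.95, 0.0496) and MCM6 (−0.51, 0.0441) were lower too. With the block 7 mitotic and 4 S-phase genes were lower, against 7.75% of all genes. It added ANLN, ECT2, CDK1, CDC20, TYMS and CCNE1. The count of 5 fell to 0 without AM LHX2 replicate 1, 1 without AM LHX2 replicate 2 and 0 without VM LHX2 replicate 3, and was 3 without replicate 3 of every group, against 3.22% of all genes. The count was 1 without replicate 1 of every group and 0 without replicate 2, against 2.03% and 0.734%. MKI67 had 0.02 (SE 0.20, adjusted p by edgeR 0.969) and PCNA 0.22 (SE 0.18, adjusted p by edgeR 0.558).

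In the libraries labelled ZNF503, 5 mitotic and 2 S-phase genes were lower in AM (medians −0.51 and −0.25), against 4.1% of all genes. ANLN was at 21.4, 20.9 and 22.5 CPM in AM and 50.7, 34.1 and 44.05 CPM in VM, a log2 fold change of −0.99 (SE 0.19, adjusted p by edgeR 0.00101). TYMS was at 18.9, 23.1 and 21.7 and 42, 41.9 and 45.3 CPM, with −1.02 (SE 0.21, adjusted p by edgeR 0.001897). AM and VM did not overlap for either. BUB1 (−0.83, edgeR adjusted p 0.0145), FOXM1 (−0.95, 0.0149), AURKA (−0.91, 0.0184), KIF20A (−0.97, 0.0281) and E2F1 (−0.79, 0.0391) were lower too. With the block 8 mitotic and 3 S-phase genes were lower, against 7.06%. The count of 7 was 3 without AM replicate 1, AM replicate 3, VM replicate 1 or VM replicate 3 of this target, and 2 without replicate 3 of every group, against 3.76% of all genes. The count was 1 without replicate 1 of every group and 5 without replicate 2, against 1.37% and 1.16%. MKI67 had −0.47 (SE 0.20, adjusted p by edgeR 0.161) and PCNA −0.04 (SE 0.18, adjusted p by edgeR 0.944).

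In ZNF711, 19 mitotic and 5 S-phase genes were lower in AM (medians −0.88 and −0.35), against 6.42% of all genes. All 3 AM libraries lay below all 3 VM libraries for 26 of 30 mitotic and 7 of 18 S-phase genes, against 16.4% of all genes. CENPF was at 59.9, 59.6 and 71.3 CPM in AM and 143, 142 and 103 CPM in VM, a log2 fold change of −1.02 (SE 0.19, adjusted p by edgeR 0.000636). TOP2A was at 66.3, 57.99 and 76.2 and 133, 175 and 115 CPM, with −1.08 (SE 0.20, adjusted p by edgeR 0.000695). CENPE, the kinesin that carries chromosomes to the spindle equator, was at 14.1, 11.7 and 14.6 and 29.2, 34.2 and 31.8 CPM, with −1.24 (SE 0.28, adjusted p by edgeR 0.004304). None of the 3 overlapped. Of S-phase genes TYMS (−0.99, edgeR adjusted p 0.00241), MCM6 (−0.62, 0.00912), CCNE1 (−1.44, 0.0154), CDT1 (−1.27, 0.0252) and RRM1 (−0.54, 0.0445) were lower. MKI67 was at 130.1, 130.1 and 135 and 217, 190.0 and 138 CPM and was not called, with −0.46 (SE 0.20, adjusted p by edgeR 0.124), nor was PCNA, with −0.26 (SE 0.18, adjusted p by edgeR 0.371).

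With the block 23 mitotic and 6 S-phase genes were lower in ZNF711, against 12% of all genes. The count of 24 fell to 8 when AM ZNF711 replicate 1 was left out, to 12 when AM replicate 2 of that target was, and to 11 when its VM replicate 2 was. Without replicate 3 of every group 19 mitotic and 2 S-phase genes were lower, against 4.9%. It was 5 genes without replicate 1 of every group, against 2.92%, and 3 without replicate 2, against 1.27%. The order of the targets by count depends on these libraries: without replicate 2 the libraries labelled ZNF503 had 5 genes lower and ZNF711 3. Cell type markers moved with this comparison: the median log2 fold change of the cardiomyocyte list in AM against VM was 0.68 in ZNF711, and −0.79, −0.81 and −1.05 in TRAC, LHX2 and ZNF503. Of the other mitotic genes 0, 1, 2 and 12 of 32 were lower in TRAC, LHX2, ZNF503 and ZNF711, and of the other replication genes 0, 0, 1 and 4 of 30. Whether the size of the difference varied between targets is tested by the interactions at the end of the report.

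**Figure D4:**
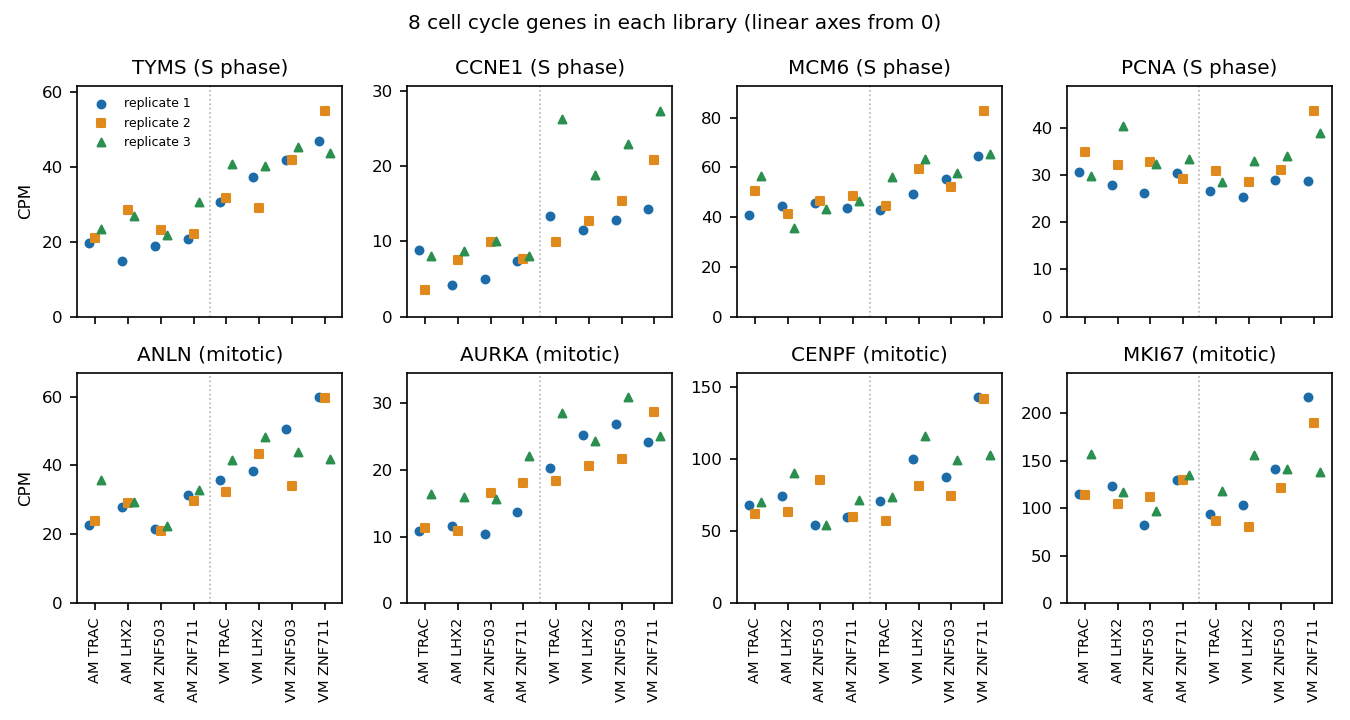
CPM (y axes, from 0) of TYMS, CCNE1, MCM6, PCNA, ANLN, AURKA, CENPF and MKI67 in each of the 24 libraries, by group (x axis) and replicate. PCNA spans 26.2 to 40.5 CPM in AM and 25.4 to 43.6 CPM in VM, and TYMS 14.8 to 30.7 CPM and 29.1 to 55.1 CPM.

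The targets were also compared with TRAC within AM and within VM. The 3 comparisons of a protocol share its TRAC libraries. In VM ZNF711 all 48 genes had higher levels than in VM TRAC, with medians of 0.86 in mitotic and 0.46 in S-phase genes against −0.01 over all genes, but edgeR called 0 of them, against 0.0169% of all genes. At an unadjusted p under 0.05 were 25 of 30 mitotic and 10 of 18 S-phase genes, against 9.4% of all genes in either direction. DESeq2 called 7 mitotic genes and 1 S-phase gene higher, against 0.248% of all genes. With the block 15 mitotic and 3 S-phase genes were higher, against 1.25% of all genes. All 3 VM ZNF711 libraries lay above all 3 VM TRAC libraries for 23 mitotic and 8 S-phase genes, against 5.41% of all genes.

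RRM2 was at 32.4, 39.9 and 26.96 CPM in VM ZNF711 and 9.44, 12.6 and 19.1 CPM in VM TRAC, a log2 fold change of 1.26 (SE 0.26, adjusted p by edgeR 0.0944, and 0.00601 with the block). UHRF1 was at 23.7, 30.7 and 17.1 and 8.82, 10.9 and 10.6 CPM, with 1.24 (SE 0.32, adjusted p by edgeR 0.209, and 0.01602 with the block). Neither overlapped. CENPF was at 143, 142 and 103 and 71.2, 56.9 and 73.9 CPM, with 0.94 (SE 0.19, adjusted p by edgeR 0.0902, and 0.00718 with the block). TOP2A was at 133, 175 and 115 and 71.4, 60.6 and 83.9 CPM, with 0.97 (SE 0.20, adjusted p by edgeR 0.0902, and 0.00924 with the block). MKI67 was at 217, 190.0 and 138 and 93.8, 86.8 and 118 CPM, with 0.87 (SE 0.20, adjusted p by edgeR 0.154, and 0.0189 with the block). These 3 genes did not overlap either. PCNA was at 28.7, 43.6 and 38.9 and 26.7, 30.9 and 28.5 CPM, which overlap, with 0.37 (SE 0.18, adjusted p by edgeR 0.526).

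The count of calls changed with the libraries used. Without VM TRAC replicate 3, 10 mitotic and 2 S-phase genes were higher, against 1.72% of all genes. Without replicate 3 of every group 14 and 4 were, against 3.22%. Without replicate 1 of every group it was 0 genes, against 0.00575%, and without replicate 2 it was 0, against 0.00552%. Leaving out a replicate number removes a VM ZNF711 library together with its control. Against the mean of VM TRAC, VM LHX2 and the VM libraries labelled ZNF503, a control chosen after seeing the data, 5 mitotic genes and 1 S-phase gene were higher, against 0.519% of all genes. With the block it was 20 and 3, against 7.36%.

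Cell type markers moved with VM ZNF711 too. All 14 cardiomyocyte genes were lower than in VM TRAC and 0 were called (median −0.88), and all 9 endoderm genes were higher and 0 were called (median 0.85). VM TRAC replicate 3, with sums of 16236 and 20799 CPM for these lists, lay within the VM ZNF711 ranges. The pluripotency sum was 302 to 384 CPM against 99.5 to 223 CPM, most of it LIN28A, while NANOG was at 0 in 15 of the 24 libraries. The fibroblast sum was 12758 to 15879 against 7259.9 to 17071 CPM. The part of these cell types in the cell cycle levels was not tested. All 32 other mitotic genes were higher in VM ZNF711, 19 of them at an unadjusted p under 0.05, and 26 of 30 other replication genes were higher.

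**Figure D5:**
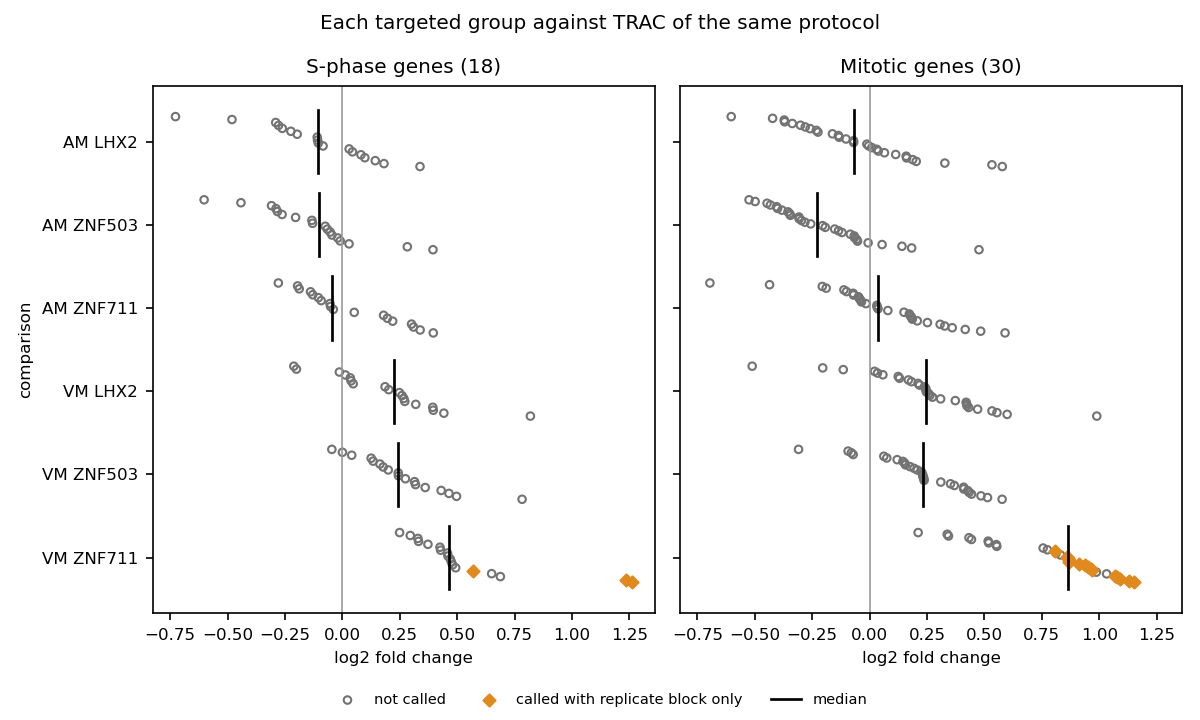
Log2 fold change of each tested gene in each targeted group against TRAC of the same protocol, with S-phase and mitotic genes apart; the markers show which genes were called and the lines are medians. In VM ZNF711 all 48 genes lie above 0, with a mitotic median of 0.86.

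In the other 5 comparisons with TRAC none of the 48 genes was called by edgeR, by DESeq2 or with the block. Of all 17724 genes 0.0% were called by edgeR without the block. With the block 201 of all genes were called in AM LHX2, 1 in AM ZNF503 and 7 in AM ZNF711. In VM it was 1 in LHX2 and 0 in ZNF503. DESeq2 called 22, 1, 0, 1 and 1 of all genes, in the same order. In VM LHX2, 3 mitotic genes and 1 S-phase gene were higher at an unadjusted p under 0.05, against 2.61% of all genes in either direction (medians 0.25 and 0.23). In the VM libraries labelled ZNF503 there were 2 and 2, against 1.55% (medians 0.23 and 0.24). CENPE was at 24.2, 28.1 and 32.8 CPM in VM LHX2 and 14.2, 14.8 and 13.9 CPM in VM TRAC, without overlap, with a log2 fold change of 0.99 (SE 0.28, adjusted p by edgeR 1). MKI67 had 0.18 (SE 0.20, adjusted p by edgeR 1) in VM LHX2 and 0.43 (SE 0.20, adjusted p by edgeR 1) in the VM libraries labelled ZNF503. PCNA had 0.01 and 0.13.

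In AM, 2, 3 and 0 of the 48 genes had an unadjusted p under 0.05 against TRAC for LHX2, ZNF503 and ZNF711, where 7.74%, 1.74% and 3.49% of all genes did. The mitotic medians were −0.07, −0.23 and 0.03, and the S-phase medians −0.11, −0.10 and −0.05. MKI67 was at 82.2, 112 and 96.9 CPM in the AM libraries labelled ZNF503 and 115, 114 and 157 CPM in AM TRAC, with −0.41 (SE 0.20, adjusted p by edgeR 1). It had −0.16 (SE 0.20, adjusted p by edgeR 0.898) in AM LHX2 and 0.04 (SE 0.20, adjusted p by edgeR 1) in AM ZNF711. At these spreads a change of this size was not detectable by the test, which does not show that the groups are alike. UHRF1 had the lowest p of the S-phase genes in AM LHX2, at 9.96, 16.3 and 11.03 CPM against 15.6, 24.5 and 21.7 CPM, with −0.73 (SE 0.32, adjusted p by edgeR 0.608).

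Whether the effect of a target differed between AM and VM was tested as an interaction, the log2 change in AM minus that in VM. No cell cycle gene was called for LHX2, ZNF503 or ZNF711, by edgeR, by DESeq2 or with the block. Of all genes 0.0% were called by edgeR for LHX2 and for ZNF503 and 0.00564% for ZNF711. With the block 0, 0 and 5 of 17724 genes were called for LHX2, ZNF503 and ZNF711, and by DESeq2 0, 0 and 10. For ZNF711, 13 mitotic and 5 S-phase genes had an unadjusted p under 0.05, with the lower change in AM, against 6.4% of all genes in either direction (medians −0.77 and −0.38). TOP2A had −1.08 (SE 0.28, adjusted p by edgeR 0.434), CENPF −1.01 (SE 0.27, adjusted p by edgeR 0.434) and UHRF1 −1.51 (SE 0.45, adjusted p by edgeR 0.504). Without replicate 3 of every group 4 mitotic genes were called, TOP2A and CENPF among them, against 1.61% of all genes, and without replicate 1 or replicate 2 0 were, against 0.0%. For LHX2, 0 mitotic and 4 S-phase genes had an unadjusted p under 0.05, against 3.72% of all genes in either direction (medians −0.36 and −0.32), and for ZNF503 5 and 4, against 1.95% (medians −0.47 and −0.33). The interactions use the same libraries as the comparisons above.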

How the data were processed

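RNA from 24 libraries of differentiated HES3 cells was measured by RNA-seq. The authors deposited 1 table of raw read counts per gene, aligned with STAR to GRCh38 per the submitters' processing notes; versions, the counting tool and strand use are not given in the sources used here. Columns were matched to libraries by title. The deposited counts were scaled by TMM and tested with edgeR 4.0.16 (R 4.3.3), a quasi-likelihood fit of 8 group means over all libraries, after filterByExpr kept 17724 of 62757 genes, with p-values adjusted over all of these by Benjamini-Hochberg. The standard error was derived from the test, as the size of the log2 fold change over the square root of the F statistic. It is imprecise where the fold change is very small. Total counts were 2899786 to 7438010 per library, median 5113600. No 2 libraries of a group agreed within sampling noise, with chi-square per degree of freedom from 4.33 to 44.2. Same-numbered libraries of different groups deviated together from their group means (r 0.125 to 0.786 over genes at a log2 CPM of 3 or more), so the numbers were taken as pairing the libraries, and a fit with the replicate as a block is printed where it changes a call or count. On data simulated for the TRAC comparison (16577 genes), the test recovered 33 of 100 genes changed by 1 on the log2 scale and 99 of 100 changed by 2, with 3 false calls among 16377. The simulation gave every gene the same spread and drew the libraries independently. Its rates therefore need not hold for these libraries. Alternatives were 2 other scalings, 2 other filters, DESeq2 1.42.0, the groups compared alone, the block, and each library or replicate number left out. Named genes were the called genes of lowest p per class, or the lowest p where few were called, and MKI67 and PCNA in every comparison; others named in the text illustrate a role and were chosen after their values were seen. The genes and lists were chosen with earlier results of these data known. Promoter windows came from RefSeq, exon overlaps from the reference annotation, and 10 genes had no window.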

Additional observations from a re-analysis of the deposited data

Results flagged for a closer look

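For 4 genes, groups of 3 libraries lay apart without overlap and in opposite directions. How many of all genes did so was not counted, so these 4 are not shown to be unusual. In VM ZNF711 against VM TRAC alone, 5.41% of all genes lay wholly above. For MKI67, KIF11 and TTK the groups were the target against TRAC in AM and in VM, and for MCM5 AM against VM in TRAC and in ZNF711. MKI67 had an interaction of −0.84 on the log2 scale for ZNF503, from −0.41 in AM and 0.43 in VM (edgeR adjusted p 1), and KIF11, a kinesin that separates the spindle poles, had −0.72, from −0.31 and 0.41 (edgeR adjusted p 1). For ZNF711, TTK, a kinase of the spindle checkpoint, had −1.47, from −0.44 and 1.03 (edgeR adjusted p 0.703), and MCM5, a subunit of the helicase ring, had −0.66, from −0.19 and 0.47 (edgeR adjusted p 0.589). None of the 4 interactions passed the test across all genes. Other cell types' markers moved with VM ZNF711, and their part was not tested.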

How the results depend on the processing

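Depth limits the low genes, and 3 libraries per group limit the calls by target. In the mean of AM against VM the number of genes called was within 1.5 times of 30 under every scaling, filter and test tried and without each library or replicate number, and it was 16 without the ZNF711 groups. The cause of the changes below was not tested.

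Ranges on leaving out libraries are over the libraries of the groups compared and the replicate numbers. The number of genes called in TRAC was 2 with no filter and 0 with the groups compared alone, and 0 to 4 on leaving out libraries or replicate numbers. In LHX2 it was 2 with library size alone, 2 with no filter, 11 with the replicate block, 1 with the groups compared alone and 0 to 6 on leaving out libraries. In the libraries labelled ZNF503 it was 11 with the replicate block, 4 with the groups compared alone and 1 to 9 on leaving out libraries. In ZNF711 it was 3 to 21 on leaving out libraries, 3 without replicate 2 and 5 without replicate 1. Without a library of another group, which changes the filter and the shared spread, the counts were 2 to 7 in LHX2, 6 to 8 in the libraries labelled ZNF503, 20 to 25 in ZNF711 and 0 to 2 for VM ZNF711 against VM TRAC. The 7 in LHX2 include PRC1, which passed the filter without VM TRAC replicate 3 (log2 fold change 3.67, edgeR adjusted p 0.0473). For VM ZNF711 against VM TRAC it was 11 with no filter, 18 with the replicate block, 8 with DESeq2, 6 with the 3 other VM groups as control, 23 with that control and the block, and 0 to 18 on leaving out libraries. For the ZNF711 interaction it was 2 with no filter and 0 to 4. The block changed no other call count by more than 1.5 times.

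Medians that moved by more than the SD between libraries ran as follows on leaving out libraries. For AM against VM, the S-phase median of LHX2 lay between −0.32 and −0.0027 and that of ZNF711 between −0.57 and −0.25, with a ZNF711 mitotic median between −1.10 and −0.71. In VM ZNF711 against VM TRAC the medians were 0.32 to 0.67 and 0.65 to 1.16, and the mitotic median was 0.67 against the 3 other VM groups. The mitotic median was −0.36 to −0.050 in AM for the libraries labelled ZNF503, and −0.63 to −0.26 in their interaction. The S-phase median was −0.44 to −0.13 in the LHX2 interaction and −0.70 to −0.35 in the ZNF711 interaction, whose mitotic median was −1.02 to −0.60. Smaller moves in AM against VM included the mitotic medians of LHX2, −0.61 to −0.21, and TRAC, −0.22 to −0.013. With only 12 S-phase genes, the ZNF711 interaction had an S-phase median of −0.54.

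Signs near 0 turned for MKI67 and PCNA, which were not called there. On leaving out libraries PCNA ran from −0.025 to 0.059 in the mean of AM against VM, and MKI67 from −0.16 to 0.33 in LHX2. PCNA in the libraries labelled ZNF503 ran from −0.10 to 0.058, and was 0.048 with library size alone. Against AM TRAC, MKI67 ran from −0.29 to 0.0041 and PCNA from −0.13 to 0.19 in LHX2, PCNA from −0.15 to 0.032 in the libraries labelled ZNF503, and MKI67 from −0.046 to 0.20 and PCNA from −0.15 to 0.068 in ZNF711. In VM LHX2, MKI67 ran from −0.12 to 0.37 and PCNA from −0.098 to 0.084. Of all 48 genes tested, 6 changed sign under at least 1 alternative in the mean of AM against VM (AURKB, MCM2, MCM5, PCNA, CDC45 and GINS2), 26 in TRAC, 18 in LHX2, 13 in the libraries labelled ZNF503, 5 in ZNF711 and 4 in VM ZNF711 against VM TRAC. None of them was called in those comparisons, nor with the other sign.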
